A study of Sus scrofa with 8 samples.

Results

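The mitochondrial ribosome and the mitochondrial import machinery were followed in pig skeletal muscle through 47 genes, of 2922 genes named on the array. A gene was taken when its single symbol in the platform annotation began with MRPL, MRPS, TIMM or TOMM followed by a digit. This gave 24 proteins of the large ribosomal subunit (MRPL), 11 of the small subunit (MRPS), 3 of the translocase of the outer membrane (TOMM) and 9 of the translocases of the inner membrane (TIMM). Another 4 spots whose annotation joined such a symbol to a second gene were left out.

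The mitochondrial ribosome translates the few respiratory chain subunits that are encoded by mitochondrial DNA, and all of its own proteins are made in the cytosol and imported. Import starts at the TOM complex, whose receptors recognise targeting signals, and continues through the TIM23 complex into the matrix or through small TIM chaperones and a second translocase for carrier proteins of the inner membrane. Skeletal muscle is rich in mitochondria, and both machines supply its oxidative enzymes.

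The study compared skeletal muscle of pigs on a high energy diet with that of pigs on a low energy diet, with the low energy sample as the reference on each slide. On 8 arrays with 2 colours, 4 couples of samples were each measured in both dye orientations, 1 array per orientation. The couples were low energy sample 49 with high energy sample 40, 61 with 41, 142 with 40 again, and a couple labelled be and ae. Couples 1 and 3 therefore shared a high energy sample. The labels give no breed, age, sex or muscle, nor whether a sample came from 1 animal or several. The p-values therefore describe no more than how these couples scatter, and some of that scatter may be technical. In whole muscle, fewer cells of a type and less RNA per cell cannot be told apart.

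Each value is a log2 ratio of the 2 channels of an array, centred on the array's median, and spots of a gene were averaged. A value above 0 most likely means more RNA in high energy muscle, since in the labels channel 2 is always the high energy sample and channel 1 its low energy reference. The direction is not stated, so each gene's ratio is followed by its turned value, the result when arrays with high energy in dye 3 have their sign reversed. The turned value is also the dye effect under the likely reading. A gene's ratio is limma's estimate over couples with its standard error, in which couples 1 and 3 count less because of the shared sample. Values of single arrays are given for couples 1 to 4, first on the 4 arrays with high energy in dye 5 (the dye 5 arrays), then on the 4 arrays with high energy in dye 3 (the dye 3 arrays).

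Between 77.6% and 94.4% of the 9984 spots had a value on an array, and 42 to 46 of the 47 members were measured. Ratios could be tested for 43 members, those with both dye orientations in at least 3 couples, of which 31 had all 4 couples and 12 had 3. MRPL27, MRPL47, MRPS33 and TIMM10 were left untested. Each gene had 2 neighbouring spots, except MRPS7 with 4 and TIMM13 with 6. The symbols of 46 members also occur in the pig RefSeq gene table (Sscrofa11.1), all but TIMM23. All 16 skeletal muscle markers on a list of fibre genes could be tested, with a median log2 ratio of -0.026, but ratios carry no level, so the tissue could not be checked by abundance.

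No gene of the mitochondrial ribosome or of import passed the test for a diet difference. With limma's test and Benjamini-Hochberg adjustment over all 5025 features, 0 of 43 members had an adjusted p under 0.05, as did 0.00% of all features, and each member's adjusted p was at least 0.996. At an unadjusted p under 0.05 there were 2 members, MRPL23 below 0 and MRPL20 above it, against 3.78% of all features (1.37% above 0 and 2.41% below). Features also include single spots kept apart. Of the 2556 tested genes alone, 61 had such a p (24 above 0 and 37 below). On the dye 5 arrays alone, which give high over low energy under either reading, 1 of 44 members had an unadjusted p under 0.05, MRPL20 at 0.60 ± 0.14 (limma's adjusted p = 0.998), against 1.90% of all features. On the dye 3 arrays alone 0 of 47 did, against 3.70%. Of the 43 members, 17 lay above 0 and 26 below, with a median log2 ratio of -0.031 (median turned value 0.0072). Over all features 46.4% lay above 0, and the median was -0.012 (turned -0.0085). The 95% intervals, not adjusted for the number of genes, lay inside -1 to 1, a change of at most 2-fold, for all 43 tested members. They lay inside -0.5 to 0.5, at most 1.41-fold, for 29. The plot of the tested members by couple shows how closely most of them surround 0.

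**Figure D1:**
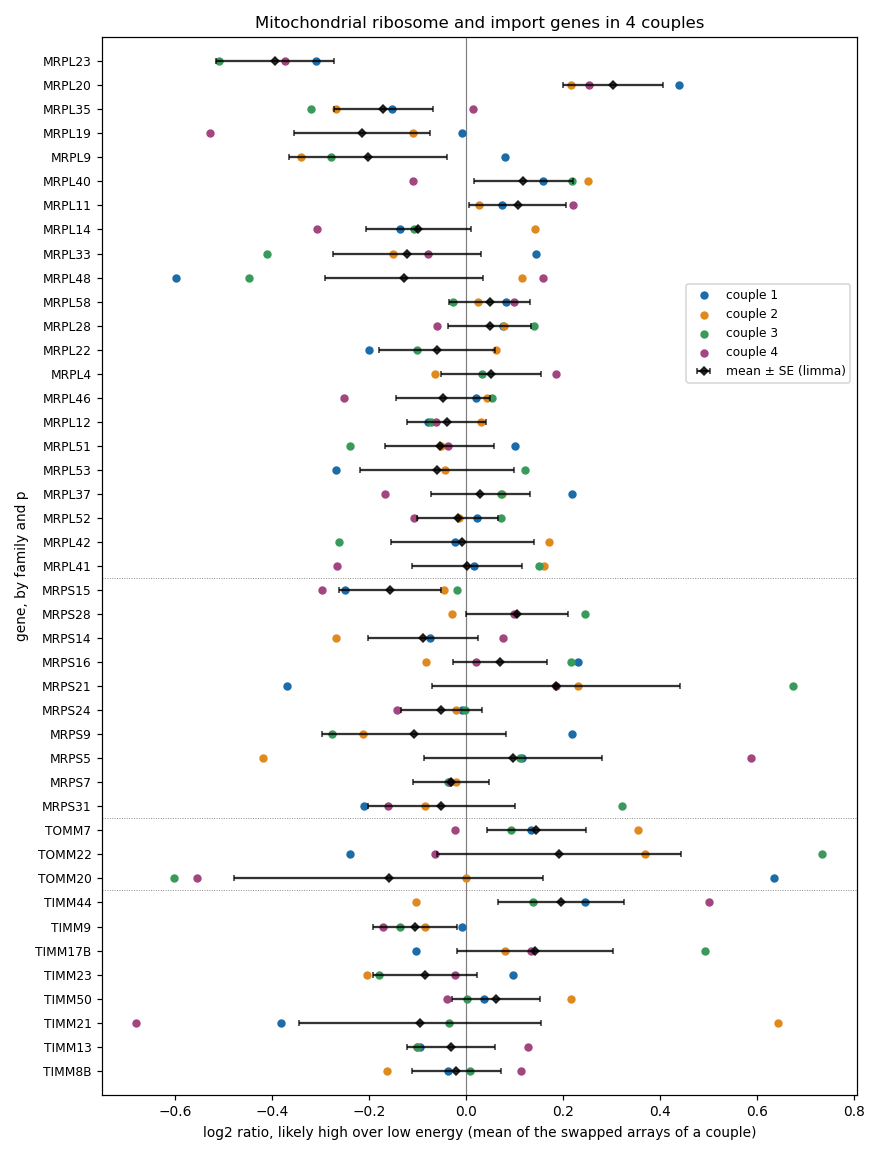
Log2 ratio (likely high over low energy, horizontal axis) of the 43 tested genes, one row per gene, grouped from top to bottom as MRPL, MRPS, TOMM and TIMM and ordered by p within a group. Coloured points are the mean of the swapped arrays of each of 4 couples, and black diamonds with bars are limma's estimate ± SE. MRPL23 at -0.39 and MRPL20 at 0.30 lie farthest from 0, and the points of TOMM20, TOMM22 and TIMM21 spread most widely.

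Ribosomal proteins of the mitochondrion lay slightly more often below 0 than above it, and import proteins were nearly evenly divided. Of 32 tested ribosomal members 12 were above 0 and 20 below, with a median of -0.044 (turned -0.00022). Of 11 tested import members 5 were above 0 and 6 below, with a median of -0.021 (turned 0.058). Their difference was -0.023, and it was not tested. Both medians moved when single couples were left out: the ribosomal one was -0.013 without couple 4, and the import one was 0.023 without couple 3 and 0.065 without couple 4.

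Array by array, the ribosomal median was -0.061, -0.00061, 0.020 and -0.064 on the dye 5 arrays and 0.015, -0.015, -0.052 and 0.030 on the dye 3 arrays. Import medians on the same arrays were -0.050, 0.051, 0.11 and -0.031, then 0.037, -0.064, -0.061 and -0.057. Both families had arrays on either side of 0 in each dye orientation, and in couples 1 to 4 the ribosomal medians of 0.0038, -0.020, -0.011 and -0.059 lay beside import medians of -0.0081, 0.00092, 0.0015 and -0.024. The medians of all features lay between -0.018 and 0.0035 on single arrays. In couples 1 to 4 they were -0.0056, -0.00033, -0.0025 and -0.026.

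**Figure D2:**
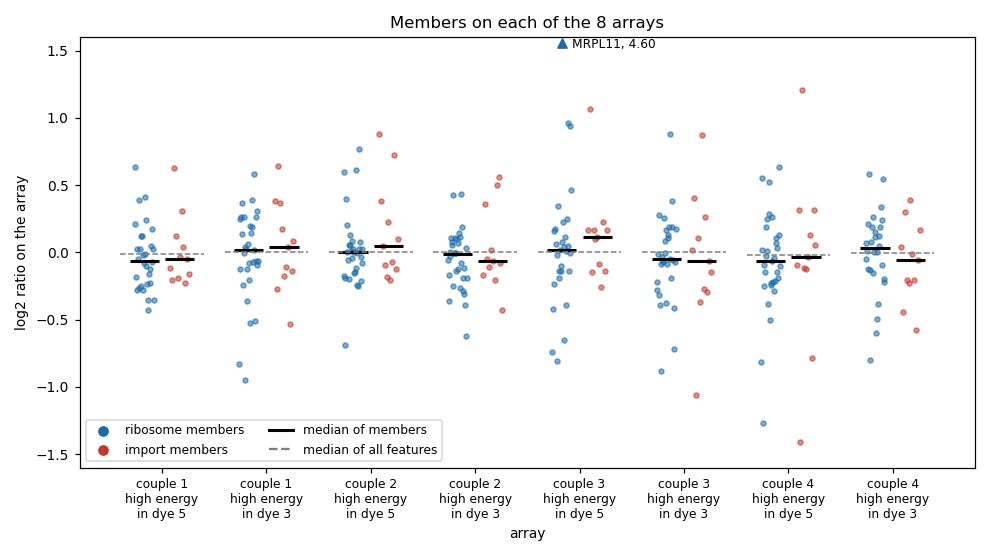
Log2 ratio (vertical axis) of every tested member on each of the 8 arrays (horizontal axis), ribosomal members in blue and import members in red, with black bars at their medians and dashed grey lines at the median of all features. The medians stay within -0.064 to 0.11 on every array, and the triangle at the upper edge marks MRPL11 at 4.60, which lies beyond the axis.

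Large subunit proteins included both members with an unadjusted p under 0.05. MRPL23, a counterpart of a bacterial large subunit protein, read 0.21, no value, -0.74 and -0.81 on the dye 5 arrays and -0.83, -0.055, -0.28 and 0.067 on the dye 3 arrays. The orientations overlapped, and 5 of 7 arrays lay below 0. Its ratio was -0.39 ± 0.12 over 3 couples (turned -0.11, unadjusted p = 0.0264, adjusted p = 0.996 in limma's test), with means of -0.31, -0.51 and -0.37 in couples 1, 3 and 4. In couples 1 and 4 those means came from arrays on opposite sides of 0. Every dye 5 value and the dye 3 value of couple 3 rested on a single spot. In couple 3 the orientations came from different spots. On the dye 3 array of couple 1 the spots read -0.14 and -1.53.

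MRPL20, another counterpart of a bacterial large subunit protein, read 0.63, 0.60, no value and 0.55 on the dye 5 arrays. On the dye 3 arrays it read 0.25, -0.16, no value and -0.046. All dye 5 values exceeded all dye 3 values, so the orientations did not overlap. In single spots they did: the dye 3 spots read 0.53 and -0.044 in couple 1, and 0.45 and -0.78 in couple 2. The dye 5 spots of couple 1 read 0.28 and 0.99. The dye 5 values of couples 2 and 4 and the dye 3 value of couple 4 rested on a single spot. Its ratio of 0.30 ± 0.10 over 3 couples had unadjusted p = 0.036 in limma's test, and so had its turned value of 0.29, with adjusted p-values of 0.996 and 0.998. Its mean was thus about the same under either reading of the direction. Of all features, 2.65% had a turned value with an unadjusted p under 0.05.

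MRPL35, another with a bacterial counterpart, read -0.18, -0.17, -0.42 and 0.018 on the dye 5 arrays and -0.12, -0.36, -0.22 and 0.013 on the dye 3 arrays. Couples 1 to 3 were below 0 in both orientations and couple 4 lay at 0.015. Its ratio was -0.17 ± 0.10 (turned 0.0032, unadjusted p = 0.151 in limma's test).

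MRPL19 and MRPL9, both with bacterial counterparts, each had 1 array without a value and 3 complete couples. MRPL19 read -0.28, -0.19, no value and -1.27 on the dye 5 arrays and 0.26, -0.024, -0.011 and 0.21 on the dye 3 arrays. All dye 5 values were below all dye 3 values, and the turned value of -0.37 was larger than the ratio of -0.22 ± 0.14. Without couple 4 that ratio was -0.059.

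MRPL9 read 0.022, -0.69, -0.24 and -0.25 on the dye 5 arrays and 0.14, 0.0059, -0.32 and no value on the dye 3 arrays. The orientations overlapped, and the ratio was -0.20 ± 0.16 over 3 couples (turned -0.15), -0.31 without couple 1 and -0.098 without couple 2. MRPL40, a protein of the large subunit without a bacterial counterpart, read -0.047, 0.40, 0.16 and -0.094 on the dye 5 arrays and 0.37, 0.10, 0.28 and -0.12 on the dye 3 arrays. It was above 0 on 5 of 8 arrays and below 0 on both arrays of couple 4, with a ratio of 0.12 ± 0.10 (turned -0.0042).

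The other 16 tested large subunit genes had ratios between -0.13 ± 0.16 (MRPL48, turned -0.071) and 0.11 ± 0.10 (MRPL11, turned -0.024). Above 0 were MRPL11, MRPL58, MRPL28, MRPL4, MRPL37 and MRPL41, and below 0 were MRPL14, MRPL33, MRPL48, MRPL22, MRPL46, MRPL12, MRPL51, MRPL53, MRPL52 and MRPL42. MRPL58, a peptidyl-tRNA hydrolase that rescues stalled ribosomes, stayed between -0.036 and 0.19 on all 8 arrays, with a ratio of 0.049 ± 0.084 (turned -0.0084). MRPL12, a stalk protein that binds translation factors, stayed between -0.24 and 0.12, with -0.040 ± 0.081 (turned -0.087). MRPL48 had the widest spread over couples among the tested MRPL genes, with couple means of -0.60, 0.11, -0.45 and 0.16. Of the untested large subunit genes, MRPL27 ranged from -0.54 to 0.50 over 5 arrays and MRPL47 from -0.60 to 0.32 over 6.

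Small subunit proteins lay close to 0, with 4 of 10 tested genes above it and 6 below, a median ratio of -0.041 (turned 0.043) and no unadjusted p under 0.05 in limma's test. MRPS15, a counterpart of a bacterial small subunit protein, read -0.43, -0.0079, 0.012 and -0.21 on the dye 5 arrays and -0.071, -0.083, -0.050 and -0.38 on the dye 3 arrays. It was below 0 on 7 of 8 arrays and below 0 as a mean in all 4 couples, at -0.16 ± 0.10 (turned 0.0072, unadjusted p = 0.189 in limma's test). Couples 1 and 4 carried most of this, at -0.25 and -0.30 against -0.045 and -0.019 in couples 2 and 3.

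MRPS24, another small subunit protein with a bacterial counterpart, read 0.050, 0.079, 0.050 and -0.19 on the dye 5 arrays and -0.066, -0.12, -0.055 and -0.091 on the dye 3 arrays. Its couple means were all below 0. Apart from couple 4, its dye 5 arrays lay above 0 and its dye 3 arrays below. The ratio was -0.051 ± 0.083 (turned 0.036).

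MRPS14 read -0.16, -0.25, no value and 0.11 on the dye 5 arrays and 0.015, -0.29, -0.19 and 0.046 on the dye 3 arrays, a ratio of -0.088 ± 0.11 over 3 couples (turned -0.014). MRPS16 read -0.12, 0.026, 0.25 and -0.15, then 0.58, -0.19, 0.19 and 0.19, a ratio of 0.071 ± 0.097 (turned -0.082). Both are counterparts of bacterial proteins, and for both the orientations overlapped.

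MRPS28 had no value in couple 1, and read -0.24, -0.39 and 0.073 in couples 2 to 4 on the dye 5 arrays and 0.19, 0.88 and 0.12 on the dye 3 arrays. The dye 3 values were all higher, and the turned value of -0.29 exceeded the ratio of 0.11 ± 0.11 in size. MRPS21 read -0.23, 0.77, 0.96 and 0.035 on the dye 5 arrays and -0.51, -0.31, 0.39 and 0.33 on the dye 3 arrays. Couple 1 lay below 0 and couple 3 above it in both orientations, so its ratio of 0.19 ± 0.26 (turned 0.20) covered couple means from -0.37 to 0.67.

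The remaining small subunit genes were MRPS9, MRPS5, MRPS7 and MRPS31. Their ratios lay between -0.11 ± 0.19 (MRPS9, turned 0.10) and 0.096 ± 0.18 (MRPS5, turned 0.20). The untested MRPS33 was above 0 on 5 of its 6 arrays, from -0.078 to 0.84. MRPS5 had couple means of 0.12, -0.42, 0.11 and 0.59.

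MRPS7, a protein of the head of the small subunit, showed the most even values of the 43 tested members, with couple means of -0.034, -0.022, -0.037 and -0.033. That evenness came from averaging 2 pairs of spots that ran in opposite ways, both by dye and by couple. The first pair averaged 0.19, -0.053, 0.29 and 0.59 on the dye 5 arrays and -0.56, -0.19, -0.15 and -0.44 on the dye 3 arrays. The second pair averaged -0.14, -0.10, -0.29 and -0.33 on the dye 5 arrays and 0.37, 0.26, 0.0100 and 0.053 on the dye 3 arrays. With both orientations averaged, the first pair lay below 0 in couples 1 and 2 and above it in couples 3 and 4. The second pair did the reverse, so the couple means of the gene came out even. The opposite dye effects largely cancel within each pair when orientations are averaged. In single spots, 7 of 8 dye 5 values and 0 of 8 dye 3 values of the first pair were above 0, against 1 of 8 and 6 of 8 for the second. Fitted apart, after these values were seen, the pairs had turned values of 0.29 ± 0.11 and -0.19 ± 0.083. In limma's test over 5356 features, with each pair of neighbouring spots of a gene as its own feature, unadjusted p was 0.0452 and 0.0607, and adjusted p 0.997 for both. Both pairs carry the same accession in the annotation, and their ratios under the likely direction, -0.037 ± 0.10 and -0.024 ± 0.11, differed little.

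Of the 4 families, outer membrane translocase genes had the highest median SD over couples, which rested on 2 of their 3 genes. The TOMM median was 0.438, the value of TOMM22 itself, with 0.580 for TOMM20 and 0.159 for TOMM7. The median was 0.147 for MRPL, 0.163 for MRPS, 0.128 for TIMM, 0.184 over all tested genes and 0.209 over all features. TOMM22, the central receptor that holds the complex together, read -0.21, 0.38, 1.06 and 0.31 on the dye 5 arrays and -0.27, 0.36, 0.41 and -0.44 on the dye 3 arrays. In couples 1, 2 and 3 the swapped arrays lay on the same side of 0, below it in couple 1 and above it in couples 2 and 3, and in couple 4 they disagreed. Over 4 couples the ratio was 0.19 ± 0.25 (turned 0.19, unadjusted p = 0.478 in limma's test), and 0.023 without couple 3. The dye 5 value of couple 3 rested on 1 spot. The spots had opposite signs on the dye 5 array of couple 2, at 0.92 and -0.16. They also did on the dye 3 arrays of couple 1, at 0.30 and -0.84, and of couple 4, at 0.28 and -1.16. On the other arrays with both spots their signs were the same.

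TOMM20, the receptor for presequences, read 0.63, 0.051, -0.15 and -1.41 on the dye 5 arrays and 0.64, -0.049, -1.06 and 0.30 on the dye 3 arrays. Couple 1 was above 0 in both orientations, while couples 3 and 4 each owed their means of -0.60 and -0.56 mostly to 1 array. The spots differed too: on the dye 5 array of couple 1 they read -0.019 and 1.28. The ratio was -0.16 ± 0.32 (turned -0.15), and 0.027 without couple 3 or 0.010 without couple 4. TOMM7, a small subunit that modulates assembly of the complex, read -0.11, 0.88, 0.17 and -0.091 on the dye 5 arrays and 0.38, -0.17, 0.019 and 0.043 on the dye 3 arrays. It was above 0 on 5 of 8 arrays, at 0.15 ± 0.10 (turned 0.10), and 0.055 without couple 2.

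Among the inner membrane translocase genes, those of the TIM23 complex lay on both sides of 0. TIMM23, the channel, read 0.31, -0.20, -0.088 and -0.031 on the dye 5 arrays and -0.11, -0.21, -0.27 and -0.015 on the dye 3 arrays. It was below 0 on 7 of 8 arrays, at -0.085 ± 0.11 (turned 0.058, unadjusted p = 0.463 in limma's test). Its partner in the membrane, TIMM17B, read -0.035, 0.23, 0.11 and -0.12, then -0.17, -0.064, 0.87 and 0.39. Its ratio was 0.14 ± 0.16 (turned -0.096), and 0.037 without couple 3. The value of 0.87 on the dye 3 array of that couple averaged spots at -0.028 and 1.78. TIMM50, the receptor of the complex, read 0.038, -0.071, -0.26 and 0.13, then 0.037, 0.50, 0.26 and -0.20, and its orientations disagreed in 3 of 4 couples. The ratio was 0.061 ± 0.091 (turned -0.089).

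TIMM44, which tethers the import motor to the channel, read 0.12, -0.095, 0.17 and 1.21 on the dye 5 arrays and 0.37, -0.11, 0.11 and -0.21 on the dye 3 arrays. Couples 1 to 3 repeated their side of 0 between orientations, above it in couples 1 and 3 and below it in couple 2. Couple 4 did not, and its ratio of 0.20 ± 0.13 (turned 0.20) was 0.065 without that couple.

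TIMM21, which links the TIM23 complex to the outer translocase and to respiratory chain assembly, differed most between couples among the TIMM genes. It read -0.23, 0.72, 0.22 and -0.78 on the dye 5 arrays and -0.54, 0.56, -0.30 and -0.58 on the dye 3 arrays. Couple 2 was above 0, and couples 1 and 4 below it, in both orientations. In couple 2 all 4 single spot values, from 0.40 to 1.05, were above 0, and in couple 4 all 4, from -1.24 to -0.32, were below. As the couples opposed each other, the ratio was -0.095 ± 0.25 (turned 0.076), -0.41 without couple 2 and 0.16 without couple 4. Each couple is 1 pair of samples, so a difference between couples could not be tested.

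**Figure D3:**
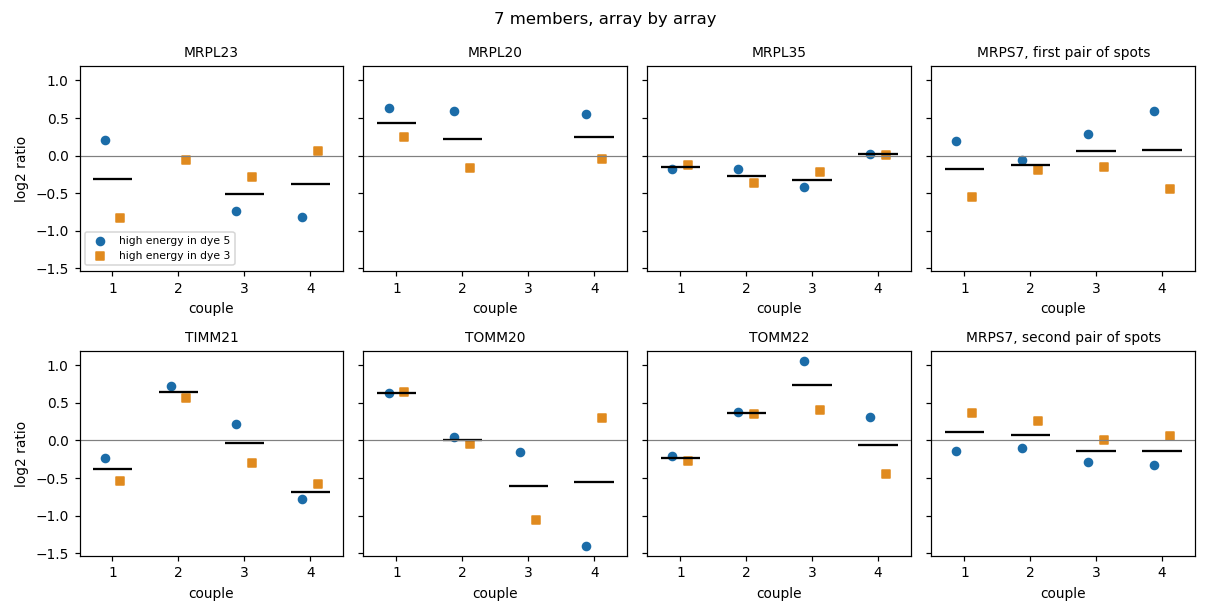
Log2 ratio (vertical axis) by couple (horizontal axis) of 6 genes and of the first and second pair of spots of MRPS7, with circles for high energy in dye 5, squares for high energy in dye 3 and black bars for the couple mean. TIMM21 is above 0 in couple 2 (0.64) and below it in couple 4 (-0.68) in both orientations, whereas the pairs of MRPS7 part by dye and in opposite ways.

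Small TIM proteins, which chaperone carrier precursors across the intermembrane space, lay mostly a little below 0. TIMM9 read -0.19, -0.18, 0.097 and -0.12 on the dye 5 arrays and 0.17, 0.018, -0.37 and -0.23 on the dye 3 arrays. Its couple means were all below 0, although only in couple 4 did both arrays lie there, and the ratio was -0.11 ± 0.086 (turned -0.0038). TIMM13 was below 0 on 7 of 8 arrays at -0.031 ± 0.091 (turned 0.051), and TIMM8B had -0.021 ± 0.092 (turned 0.069). The untested TIMM10, the partner of TIMM9, ranged from -1.16 to 1.27 over 6 arrays.

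The 3 pairs of spots of TIMM13 carry the same accession and did not give the same value. The first pair read -0.18, -0.38, -0.17 and -0.13 on the dye 5 arrays and -0.14, -0.22, -0.13 and -0.11 on the dye 3 arrays, below 0 on all 8 arrays. Fitted apart after these values were seen, it had -0.19 ± 0.086 (turned -0.035), with unadjusted p = 0.0743 and adjusted p = 0.997 in limma's test. The second pair had 0.0025 ± 0.089 (turned 0.051) and the third 0.20 ± 0.20 (turned 0.26), the latter with 1.56 on a single array. Of features measured on all 8 arrays, 2.25% had 1 sign on all of them, and with all spots averaged 0 of 31 members did.

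Couple means of 1 sign in all 4 couples were found for MRPS15, MRPS24, MRPS7 and TIMM9, all below 0. These are 4 of the 31 members with 4 couples, where 16.6% of all such features had 1 sign. The swapped arrays were also compared for values far from 0 on both. A limit of 0.3 on both arrays was chosen after the values were seen. By that limit, 5 of 44 import pairs of arrays (11.4%) and 2 of 116 ribosomal pairs (1.72%) lay far from 0 on the same side. Over all features, which include single spots kept apart, the share was 7.21%, and over all tested genes it was 5.43%. The same limit on opposite sides held for 2 import pairs (4.55%) and 4 ribosomal pairs (3.45%). This compares with 6.71% of all pairs, and 4.95% of the pairs of tested genes. The 5 import pairs on the same side were couples 2 and 4 of TIMM21, couple 1 of TOMM20, and couples 2 and 3 of TOMM22, and the 2 on opposite sides were couple 4 of TOMM20 and of TOMM22. The largest value of TOMM20, -1.41, was thus met by 0.30 in the swapped array. The ribosomal pairs on the same side were couple 3 of MRPS21 and couple 4 of MRPS5. Without any limit, swapped arrays of members fell on the same side of 0 in 81 of 160 pairs, against 50.5% of all pairs.

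**Figure D4:**
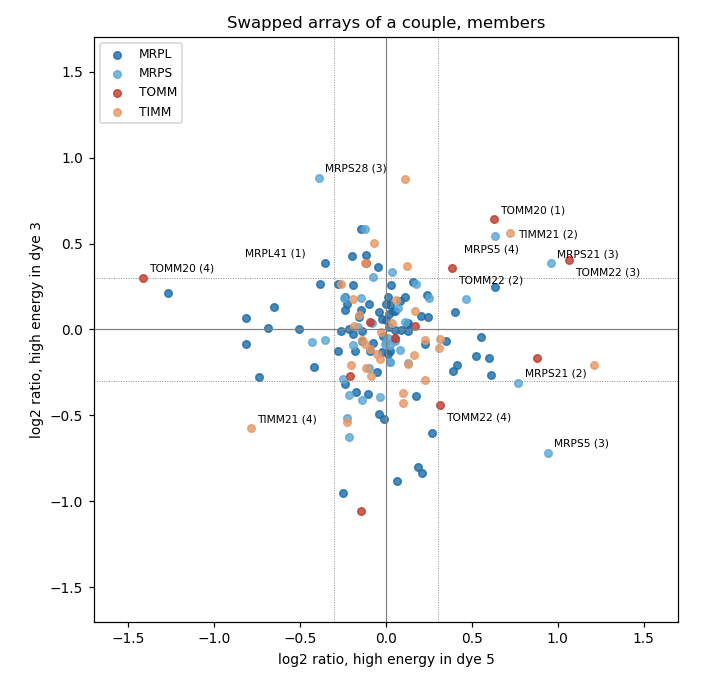
Log2 ratio of each tested member in each couple with high energy in dye 5 (horizontal axis) against the same with high energy in dye 3 (vertical axis), coloured by family, with dotted lines at 0.3 and -0.3. Named points, with the couple in brackets, lie beyond the dotted lines on both arrays, 7 of them on the same side of 0 and 6 on opposite sides.

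How far a member strayed went with its brightness. Within 6e-10 on the log2 scale, 85.9% to 97.1% of the values of an array equal the log2 of 1 whole number over another with a denominator under 5000. The larger number of the simplest such ratio, taken for the other values too without that limit, was read as the least brightness the spot can have had, its recovered signal. At a median recovered signal of at least 1000 were 8 members, MRPL58, MRPL28, MRPL46, MRPL12, MRPL37, MRPL52, MRPS15 and MRPS24. Their median SD over couples was 0.0799, against 0.173 in the other 35, and none of their ratios was larger in size than the 0.16 of MRPS15. All features showed the same order, with 0.123 for 1283 bright and 0.245 for 3742 dim ones. Across the 43 members Spearman's rho between recovered signal and SD was -0.37, and -0.43 across all 5025 features. Genes are not independent replicates and share the same 8 arrays. All 11 tested import genes lay under 1000, TOMM20, TOMM22 and TIMM21 included. The part of brightness in their spread was not tested. The 2 spots of a member differed on an array by a median of 0.311, against 0.279 for all genes with 2 spots, and had opposite signs in 44.4% of cases against 43.7%.

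**Figure D5:**
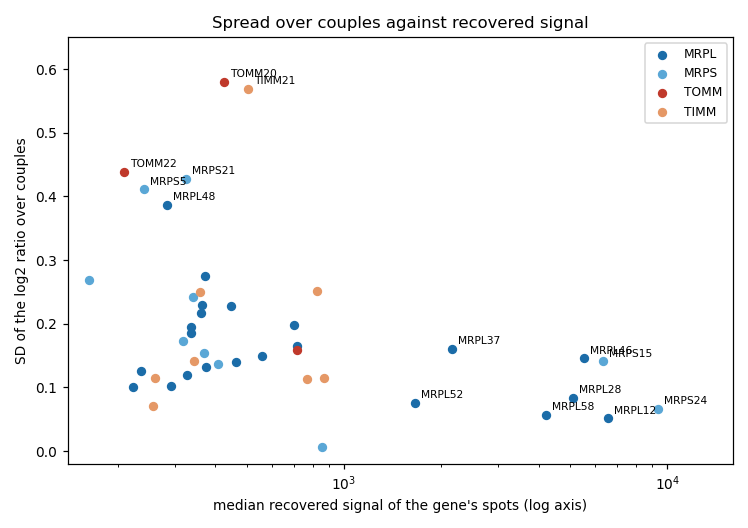
SD of the log2 ratio over couples (vertical axis) against the median recovered signal of a gene's spots (horizontal axis, log scale) for the 43 tested members, coloured by family. The 8 members at 1000 or more reach an SD of at most 0.160, while TOMM20, TIMM21, TOMM22, MRPS21, MRPS5 and MRPL48 at the upper left exceed 0.35; MRPS7 lies near 0 because its pairs of spots cancel.

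Other genes of the same processes gave no call either, with 0 members of any list at an adjusted p under 0.05 in limma's test. Of ribosomal proteins under other symbols, PTCD3 had 0.046 ± 0.080 (turned -0.050) and GADD45GIP1 -0.0021 ± 0.13 (turned -0.13). Of 8 tested mitochondrial translation and assembly factors 4 lay above 0 and 4 below, with a median of -0.00073. Among them RBFA, a ribosome maturation factor, had 0.16 ± 0.12 (turned -0.23), MRRF, which recycles ribosomes, -0.17 ± 0.13 (turned 0.0080), and MTG1, an assembly GTPase, -0.19 ± 0.15 (turned 0.14), all in 3 couples. CARS2, the mitochondrial cysteinyl-tRNA synthetase, was the 1 tested of 3 annotated synthetases, at -0.068 ± 0.15 (turned -0.021).

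Of 11 tested genes for import, sorting and presequence cleavage under other symbols, 6 lay above 0 and 5 below, with a median of 0.0098 (turned 0.059). This list includes TIMMDC1, which is known as an assembly factor of respiratory complex I. SAMM50, the core of the machinery that inserts beta-barrel proteins into the outer membrane, was the only one of them with an unadjusted p under 0.05. It read -0.10, -0.19, 0.20 and -0.51 on the dye 5 arrays and -0.12, -0.33, -0.97 and -0.087 on the dye 3 arrays, so 7 of 8 arrays lay below 0. Its ratio was -0.27 ± 0.10 (turned 0.077, unadjusted p = 0.0421, adjusted p = 0.996 in limma's test). The subunits of the processing peptidase that removes presequences were at 0.51 ± 0.33 (PMPCB, 3 couples, turned -0.50) and -0.042 ± 0.085 (PMPCA, turned 0.059). The PMPCB value rested on 3.38 on 1 array of couple 4, whose swapped array had -0.61. Of 9 mitochondrial chaperones, prohibitins and proteases, of which HSPA9 is also on the import list, 4 lay above 0 and 5 below, with a median of -0.0056. AFG3L2, a protease that also matures a ribosomal protein, had -0.28 ± 0.18 (turned -0.17), HSPD1, the matrix chaperonin, 0.15 ± 0.11 (turned 0.24), and PHB2, a prohibitin, -0.076 ± 0.10 (turned -0.10).

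Beside these, 3 tested genes of mitochondrial DNA expression and its regulation lay above 0, POLRMT, the mitochondrial RNA polymerase, at 0.10 ± 0.093 (turned 0.11), SSBP1 at 0.064 ± 0.11 (turned -0.023) and ESRRA at 0.030 ± 0.080 (turned 0.0052). Of 66 nuclear genes of oxidative phosphorylation 25 lay above 0 and 41 below, with a median of -0.028 (turned -0.00023). That count and median were near those of the mitochondrial ribosomal proteins. By couple the oxidative phosphorylation medians were 0.023, 0.00049, -0.0072 and -0.075, so only couple 4 lay far below 0, where the median of all features was -0.026. Of 9 citrate cycle genes 6 lay above 0, with a median of 0.036 (turned -0.032). The cytosolic ribosome stood on the other side, with 46 of 66 genes above 0 and a median of 0.042 (turned -0.026). Its couple medians were 0.045, 0.040, 0.023 and 0.052, against 0.0038, -0.020, -0.011 and -0.059 for the mitochondrial ribosome. The cytosolic medians lay above 0 in all 4 couples. This list was taken by symbol, so it includes RPS19BP1, a partner of RPS19 rather than a ribosomal protein, at -0.10 ± 0.086 (turned 0.084). It also includes the ribosomal protein-like genes RPS27L and RPL3L. The difference between the cytosolic and the mitochondrial ribosome was not tested. In the cytosolic list RPS27L and RPL13 had an unadjusted p under 0.05 in limma's test, on opposite sides of 0. RPS27L had -0.46 ± 0.13 over 3 couples (turned 0.36, unadjusted p = 0.0209). RPL13 had 0.22 ± 0.082 (turned 0.073, unadjusted p = 0.0396), and both had adjusted p = 0.996.

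Markers of other cell types in muscle did not pass either. Tested genes were 3 for adipocytes, 4 for red blood cells, 5 for vessels, 5 for fibroblasts and 5 for leukocytes, with median ratios of -0.075, -0.0018, 0.11, 0.015 and -0.049. Adipocyte medians were -0.044, -0.11, 0.12 and -0.41 in couples 1 to 4. The part of other cells in the members' values was not tested.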

How the data were processed

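Skeletal muscle cDNA was labelled with Cy3 and Cy5 and read with a ScanArray LITE scanner, per the labels' series design text. The authors deposited 1 log2 ratio per spot for each of 8 arrays. The base was read from the values, and array medians between -0.0071 and 0.0115 show that they were already centred. The methods of spot filtering, background removal and normalization were not given in the sources used here, and no counts or intensities were used.

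Arrays were centred on their medians, spots sharing a single gene symbol (6610 of 9984) were averaged, and other spots kept apart, giving 6296 features. The 2 orientations of a couple were averaged and counted once (n = 4 couples). A feature was tested with both orientations in at least 3 couples, which left 5025 features. limma 3.58.1 (R 4.3.3; lmFit, eBayes) tested the mean against 0, two-sided, treating couples 1 and 3, which share a high energy sample, as correlated at 0.5, and Benjamini-Hochberg adjustment over all features.

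Platform annotation accessions are human, so pig transcripts may bind unequally. Members, lists and tests were chosen with earlier results of these data known. Array values are printed for the 6 members of each family with the smallest p. Of the other lists up to 3 genes each are given by their ratio, and only SAMM50 on every array. No gene is named from the oxidative phosphorylation, citrate cycle or cell type lists. Array, spot or couple values of further members (such as MRPS7, TIMM13, MRPL48 and MRPS5) were added after they were seen. No sequence is printed, and the planned description of protein features was not run. In all, 18 other settings were tried.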

Additional observations from a re-analysis of the deposited data

Results flagged for a closer look

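In 123 groups of 4 values (the arrays of a dye orientation, couple means, and family medians), 10 held a value that stood apart from the other 3 by Dixon's criterion at the 95% level. Chance flags about 5% of such groups, and the groups share arrays. On the dye 5 arrays, MRPL11 read 4.60 in couple 3 against -0.14 to 0.39 in the others. This was 1 spot, its neighbouring spot and the swapped array had no value, and the couple did not enter its ratio. MRPL14 read -0.26 in couple 1 against 0.17 to 0.21. Of these, the 0.17 of couple 3 averaged spots at -1.47 and 1.82, so the narrow range of the others was no close agreement of spots. MRPL37 read 0.0025 in couple 2 against 0.23 to 0.27, and MRPS24 -0.19 in couple 4 against 0.050 to 0.079. On the dye 3 arrays, MRPS15 read -0.38 in couple 4 against -0.083 to -0.050, and the import median was 0.037 in couple 1 against -0.064 to -0.057.

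Couple means stood apart for MRPL12, at 0.031 in couple 2 against -0.079 to -0.063, and for MRPL46, at -0.25 in couple 4 against 0.020 to 0.054. MRPS24 had -0.14 in couple 4 against -0.020 to -0.0022, and TIMM13 had 0.13 in couple 4 against -0.10 to -0.096. Couple 4 thus gave 3 of the 4 couple means that stood apart.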

How the results depend on the processing

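No member and no feature passed the threshold in any of the 18 alternatives, and the smallest adjusted p of a member was 0.681, in the fit of all 8 arrays with the couple as a replicate block. Features with an unadjusted p under 0.05 numbered 190, and 107 to 284 when 1 couple was left out (107 without couple 2, 122 without couple 4). There were 108 on the dye 5 arrays alone, 310 with independent couples, 326 with 8 arrays and no replicate block, and 353 with that block, whose estimated correlation was -0.036. Members with an unadjusted p under 0.05 numbered 2, and 0 to 2 when 1 couple was left out. They numbered 1 when turned, on the dye 5 arrays alone, or with any array of at least 2 couples. Their number was also 1 without the dimmest 25% of values, and 0 on the dye 3 arrays alone or with all 8 arrays required. MRPL23 had 7 arrays and MRPL20 had 6, so neither could be tested with all 8 required. Neither was tested without the dimmest 25% of values, so the member counted there was another. The ribosomal median was -0.046 to -0.013 when 1 couple was left out, -0.00022 when turned and -0.0061 on the dye 5 arrays alone. For the import median this gave -0.014 to 0.065, 0.058 and 0.020, with -0.045 on the dye 3 arrays alone and 0.044 without the dimmest 25% of values. The ribosomal minus the import median was -0.023, and -0.078 to -0.012 when 1 couple was left out, -0.058 when turned and -0.079 without the dimmest 25% of values. The cause of these shifts was not tested. Of 43 tested members, none called, 24 had the other sign when turned, 11 on the dye 5 arrays alone and 9 on the dye 3 arrays alone. Of the 30 with a value under all 11 alternatives that keep both orientations and all couples, 27 kept their sign, and of all 43 tested, 27 kept it without each couple. Centring changed the sign of 0 members, and scaling or quantile normalization of 1 each.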
